A study of Mus musculus with 15 samples.

Results

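The transcription factor NF-kappaB induces 2 sets of genes that endothelial cells use in inflammation: the inhibitors and subunits that feed back on the pathway, and chemokines that attract leukocytes. The 10 genes described here were taken from the gene table by symbol: the feedback and pathway genes Nfkbia, Tnfaip3, Nfkb2, Relb and Tnfaip2, and the chemokines Ccl2, Cx3cl1, Cxcl1, Cxcl9 and Cxcl10. All 10 were found among the 23337 genes of the table, and all 10 passed the filter on low counts that left 12471 genes for testing. They were measured by RNA sequencing of endothelial cells, sorted by flow cytometry from mouse hearts as CD45- CD31+ cells, 4 weeks after transverse aortic constriction (TAC), a surgical narrowing of the aorta that makes the heart pump against a raised pressure, or after a sham operation. Every mouse carried STING alleles flanked by loxP sites (STINGfl/fl). The WT mice had no Cre (Cad5CreERT2-/-), and the KO mice carried Cad5CreERT2+/+, a tamoxifen-inducible Cre driven by the promoter of the endothelial cadherin gene Cdh5. There were 3 WT and 3 KO mice with sham surgery and 5 WT and 4 KO mice with TAC, 1 library each, and libraries are named by mouse number. Since Cre was present in KO mice only, an effect of Cre itself and an effect of STING loss cannot be told apart. The WT mice are numbered 131 to 138 and the KO mice 348 to 354, so a difference between cohorts and one between genotypes cannot be told apart either, which applies to every comparison of KO with WT. Tamoxifen dosing, age and sex of the mice are not given in the sources used here.

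In resting cells NF-kappaB dimers are held in the cytoplasm by IkappaB proteins. Signals from cytokine and pattern receptors, and from STING, the adaptor that responds to cytosolic DNA through the kinase TBK1, lead to loss of IkappaB and entry of the dimers into the nucleus. Among the first genes they switch on are Nfkbia and Tnfaip3, whose products shut the signal down again, while Cxcl9 and Cxcl10 also respond to interferon. In the heart under pressure overload, endothelial chemokines are known for their part in recruiting monocytes and T cells.

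**Figure D1:**
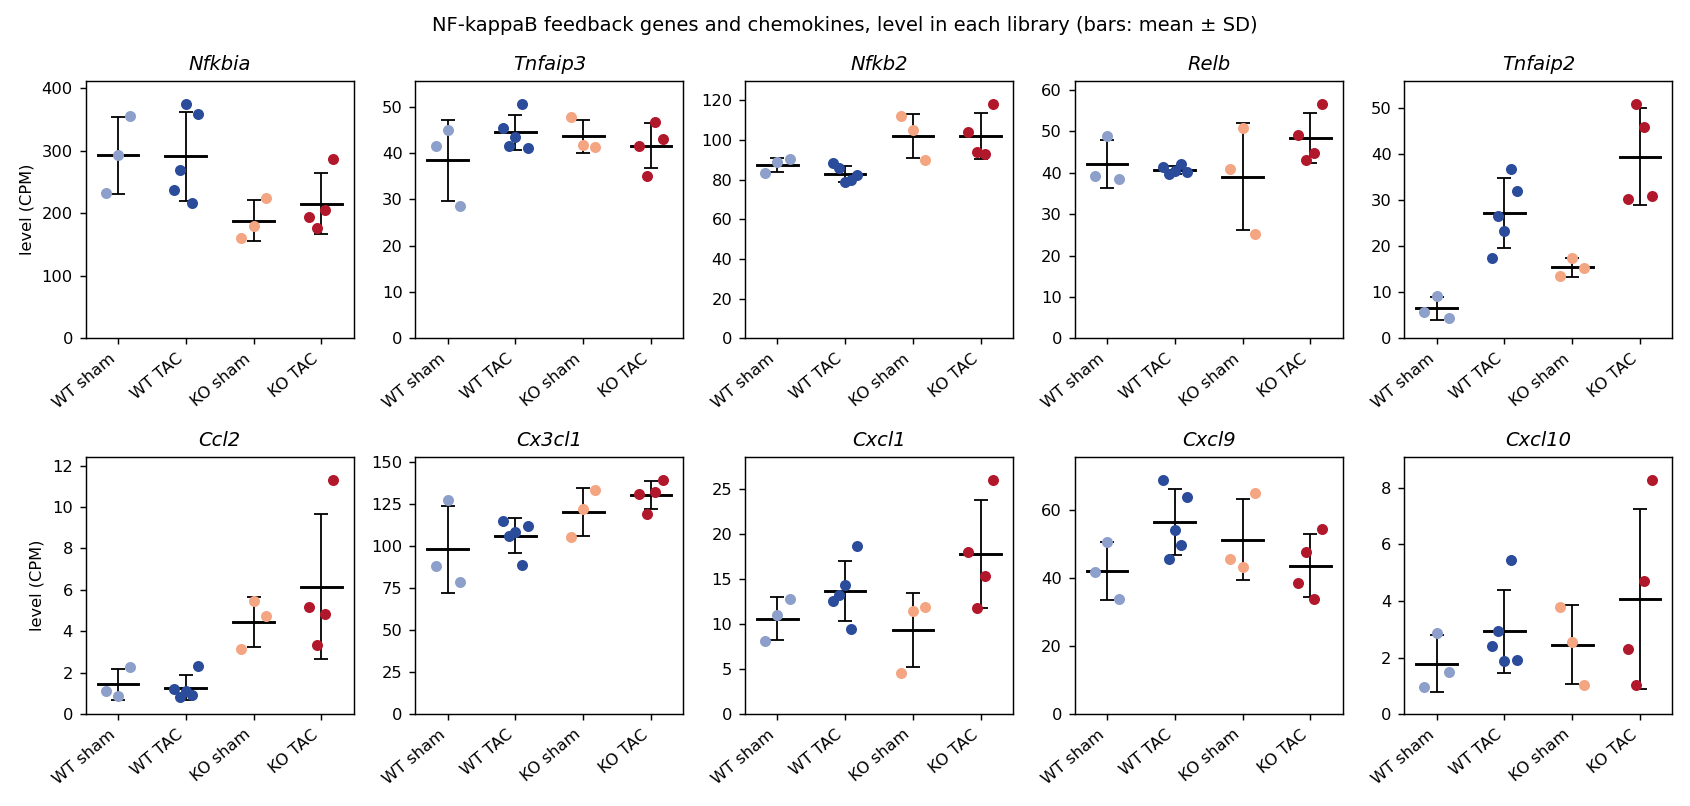
Level of each of the 10 genes in CPM (the count scaled to a common library total, vertical axes from 0) in the 15 libraries, by group; points are libraries, and the black bar and whiskers are the group mean ± SD. Ccl2 was higher in all 7 KO libraries than in all 8 WT libraries, and Tnfaip2 was higher after TAC than after sham surgery in both genotypes.

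Promoter sequences of the genes show where NF-kappaB could act on them. RefSeq windows of 300 bases on build GRCm38.p6 (the patch release of mm10), running from 250 bases before to 50 bases after each annotated start, were matched by symbol for 8 of the 10 genes. Ccl2 and Relb had no window. The windows of Nfkbia (chr12:55492598-55492897, minus strand), Nfkb2 (chr19:46304487-46304786, plus strand, the first of its annotated starts), Tnfaip2 (chr12:111442411-111442710, plus strand), Cxcl1 (chr5:90890995-90891294, plus strand) and Cxcl10 (chr5:92348840-92349139, minus strand) are printed: Nfkbia and Nfkb2 were called and hold the NF-kappaB consensus, Tnfaip2 was called and holds none, and Cxcl1 and Cxcl10 are chemokines that hold it. They read 5′ to 3′ on the strand of the gene, and capitals mark matches of the NF-kappaB consensus, searched on both strands.
Nfkbia: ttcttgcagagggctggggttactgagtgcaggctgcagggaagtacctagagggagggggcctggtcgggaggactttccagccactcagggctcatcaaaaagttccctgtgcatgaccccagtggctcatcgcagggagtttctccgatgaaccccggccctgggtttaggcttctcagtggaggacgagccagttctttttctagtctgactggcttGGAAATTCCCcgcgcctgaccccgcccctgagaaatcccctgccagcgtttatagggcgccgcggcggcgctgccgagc
Nfkb2: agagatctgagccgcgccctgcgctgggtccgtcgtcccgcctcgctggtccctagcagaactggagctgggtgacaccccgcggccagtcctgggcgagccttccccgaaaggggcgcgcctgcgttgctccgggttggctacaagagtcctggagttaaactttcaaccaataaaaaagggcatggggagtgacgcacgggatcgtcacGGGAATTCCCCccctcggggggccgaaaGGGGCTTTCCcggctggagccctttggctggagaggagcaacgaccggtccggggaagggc
Tnfaip2: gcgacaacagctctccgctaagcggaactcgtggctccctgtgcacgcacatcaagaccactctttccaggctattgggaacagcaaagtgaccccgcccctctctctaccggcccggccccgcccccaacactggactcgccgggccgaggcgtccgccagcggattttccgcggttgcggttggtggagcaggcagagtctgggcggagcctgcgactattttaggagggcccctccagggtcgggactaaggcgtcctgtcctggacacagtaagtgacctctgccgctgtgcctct
Cxcl1: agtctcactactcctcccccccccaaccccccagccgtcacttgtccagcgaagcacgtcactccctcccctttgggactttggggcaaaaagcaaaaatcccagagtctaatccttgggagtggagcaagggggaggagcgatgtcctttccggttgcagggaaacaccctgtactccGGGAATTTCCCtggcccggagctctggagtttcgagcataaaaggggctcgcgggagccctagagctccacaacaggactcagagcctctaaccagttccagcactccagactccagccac
Cxcl10: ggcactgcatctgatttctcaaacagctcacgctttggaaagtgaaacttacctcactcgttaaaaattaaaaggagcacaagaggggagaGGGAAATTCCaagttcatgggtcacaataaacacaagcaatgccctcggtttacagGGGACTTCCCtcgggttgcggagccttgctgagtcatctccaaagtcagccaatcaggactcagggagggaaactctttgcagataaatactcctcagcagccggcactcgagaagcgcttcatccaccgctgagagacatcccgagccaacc
The consensus was found in 5 of the 8 genes with a window, and in 4.51% of the 32851 mouse windows searched the same way. A gene counted here if any of its windows matched, and Nfkb2 has 3 windows and Tnfaip3 2, while the shares are per window. In Nfkbia its first base lay 29 bases before the start, in Cxcl1 71 bases before, in Cxcl10 159 and 103 bases before, and in Nfkb2 39 and 11 bases before. The fifth gene was Tnfaip3, with matches 125 and 12 bases before the start. Tnfaip2, Cx3cl1 and Cxcl9 held no match in these windows. A looser form that fixes only GGG at one end and CC at the other, which every consensus match also fits, was present in 7 of the 8 genes but also in 50.8% of all windows. Of other motifs, the interferon-stimulated response element (GAAA, any 2 bases, GAAA) was found in Cxcl10 and in 3.44% of all windows. The AP-1 site TGANTCA was found in 4 of the 8 genes (7.81% of all windows), the GAS element TTCNNNGAA in 1, Nfkb2 (8.3%), and TATAAA in 4 (13.6%). The AP-1 match of Nfkb2 lay in its window 2, which is not printed. A match is a run of letters and not a measured binding site.

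Sequencing depth varied from 1362346 counts in WT sham 133 to 15670319 counts. The targeted gene Tmem173, which encodes STING, lay at 53.9 to 82.0 CPM in WT and at 17.3 to 31.4 CPM in KO libraries, so that the groups did not overlap. Endothelial markers were abundant in every library but not level between groups. Their sum over 14 genes was 16930 to 17980 CPM in KO TAC and 19220 to 21330 CPM in WT TAC, without overlap. In that comparison 7 of 14 were lower and 1 higher, beside 15% and 14.8% of all genes. Tek fell by 0.99, Tie1 by 0.64, Flt1 by 0.52 and Kdr by 0.47 on the log2 scale, while Pecam1, the gene of the sorting marker CD31, was 0.19 higher; their part in the KO effects below was not tested. Leukocyte markers were near the detection limit, with a summed level over 19 genes of 9.05 to 17.8 CPM and Ptprc at no more than 2.26 CPM. The libraries KO sham 348 and KO sham 350 stood apart: 209 and 325 genes were at 0 there where at least 10 counts were expected, against 3 to 28 genes in the other libraries. Leaving both out leaves KO sham with 1 library, which is then assumed to vary like the other groups. Calls on the 10 genes that rest on KO sham 348 and 350 are named below. Calls on single genes of the other lists were not checked without these libraries or in the other alternatives.

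Relative to transcript length the 10 genes covered a wide range. Nfkbia, the gene of the inhibitor IkappaB-alpha, had the highest level over all libraries, with a mean of 159 CPM per kb of exon and a range of 102 to 237, at percentile 98 of all genes tested. Cx3cl1, the gene of the membrane-bound chemokine fractalkine, followed with 36.1 CPM per kb (24.9 to 44.3). Nfkb2, Relb, Cxcl9 and Cxcl1 had mean levels of 28.2, 19.4, 16.9 and 14.0 CPM per kb, and each of these ranges overlapped that of its neighbour in this order. Tnfaip3 (9.21 CPM per kb) and Tnfaip2 (6.71 CPM per kb) were lower. Ccl2 (4.02 CPM per kb) and Cxcl10 (2.64 CPM per kb) were the lowest, and their values rested on 3 to 79 and on 2 to 60 counts per library. This order of means over all libraries did not hold in every group. In WT TAC the mean level of Cxcl10 was 2.66 ± 1.34 and that of Ccl2 1.58 ± 0.763 CPM per kb (SD, n = 5), and in KO TAC that of Cxcl1 was 18.7 ± 6.32 and that of Cxcl9 15.1 ± 3.17 CPM per kb (SD, n = 4), pairs that overlap within their SD.

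The 4 pairwise comparisons were made, with 2 averages and the difference of the TAC effects, all with edgeR's quasi-likelihood test and Benjamini-Hochberg adjustment over all 12471 genes. They share groups, so their results are not independent of one another. The numbers of the 10 genes called at an adjusted p under 0.05 stand beside the share of all genes called. TAC in WT called 1 of the 10 genes (2.59% of all genes), and TAC in KO called 1 of 10 (9.59%). KO against WT called 5 of 10 after TAC (29.8%) and 2 of 10 after sham surgery (9.21%). Averaged over genotypes, TAC called 2 of 10 (10.7%), and averaged over surgeries, KO called 5 of 10 (30.8%). For the difference of the TAC effects, 0 of 10 were called by edgeR (0.69% of all genes), 1, Cxcl9, had an unadjusted p under 0.05, and DESeq2 and limma voom called 0. The median log2 fold change of the 10 genes was 0.12 for TAC in WT and 0.24 for TAC in KO, against 0.00 and 0.01 over all genes. For KO against WT it was 0.30 after TAC and 0.22 after sham surgery, against -0.02 and 0.00.

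**Figure D2:**
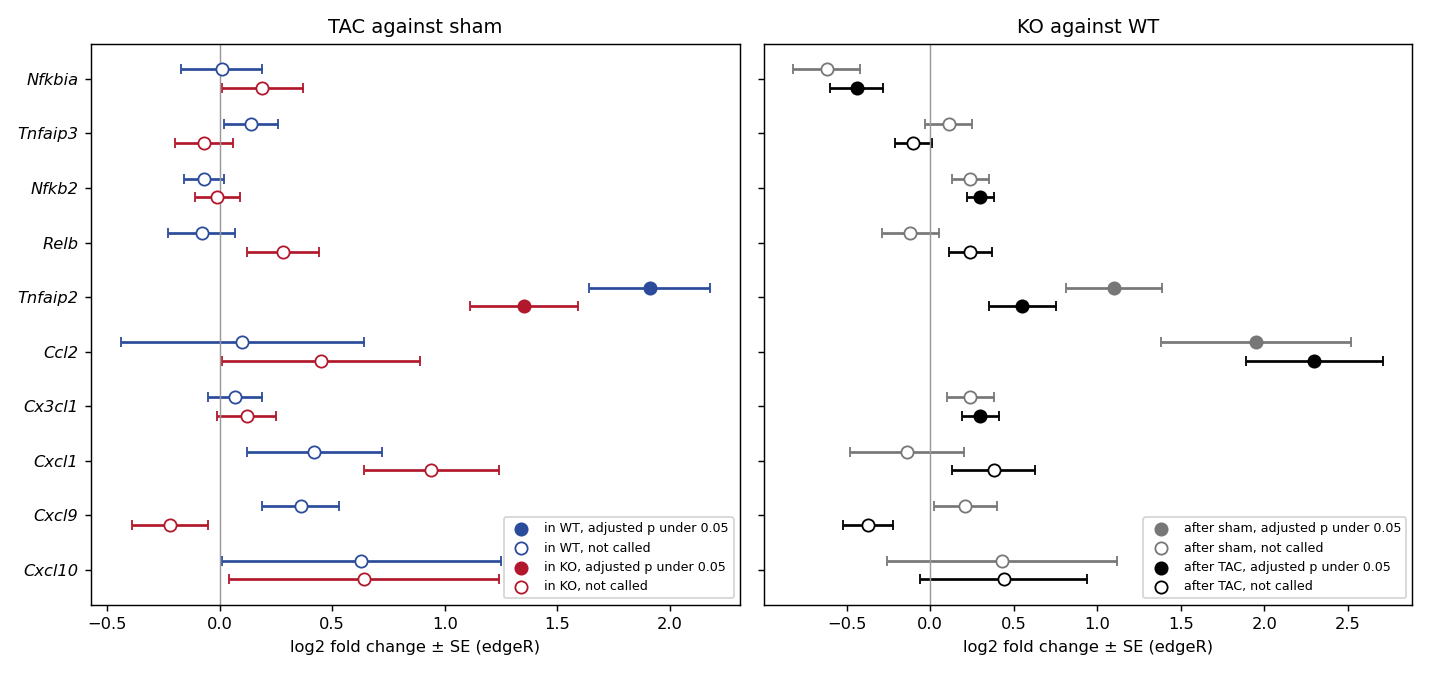
Fitted log2 fold changes with their SE for the 10 genes, TAC against sham on the left (WT and KO) and KO against WT on the right (after sham and after TAC); filled points have an adjusted p under 0.05 by edgeR. Tnfaip2 was called in all 4 comparisons drawn, and Ccl2 has the largest KO effects, 1.95 after sham surgery and 2.30 after TAC.

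Nfkbia (chr12:55489409-55492647) encodes IkappaB-alpha, which binds NF-kappaB dimers, removes them from DNA and is itself an NF-kappaB target. WT libraries had 232, 293 and 355 CPM after sham surgery and 238, 269, 374, 217 and 358 CPM after TAC. KO libraries had 161, 180 and 224 CPM after the sham operation and 194, 176, 206 and 286 CPM after constriction. The sham groups did not overlap, whereas after TAC the library KO TAC 354 lay among the WT values. The level in KO was lower by an average log2 fold change of -0.53 ± 0.13 (SE, adjusted p = 0.00325), which was called in all 22 alternative settings. Taken alone, the TAC groups gave -0.44 ± 0.16 (adjusted p = 0.0441) and the sham groups -0.62 ± 0.20 (adjusted p = 0.0541). For TAC the values were 0.01 ± 0.18 (WT) and 0.19 ± 0.18 (KO), with adjusted p = 0.989 and 0.550.

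The call on Nfkbia after TAC was narrow. It was lost when any of WT TAC 135, 136 or 138 or KO TAC 351, 352 or 353 was left out. The same held for WT sham 132 and KO sham 349 (adjusted p = 0.0521 to 0.170 over all these libraries). DESeq2 (0.153), RLE scaling (0.0643) and a filter of at least 5 CPM in 3 libraries (0.0647) also lost it. The sham comparison passed the test in 7 of 23 settings. Among them were those without WT sham 131, WT TAC 136 or 137, KO sham 350 or KO TAC 354 (adjusted p = 0.0274 to 0.0473). Immediate early genes, which respond within minutes to stress and to tissue dissociation, also differed by genotype. Over both surgeries 11 of 27 of them were lower in KO and 3 higher, beside 16% and 14.8% of all genes, and their summed level was 7299 to 12330 CPM in WT and 6864 to 9370 CPM in KO libraries. Ier2 fell by 0.81 and Junb by 0.63 on the log2 scale. Between KO TAC and WT TAC alone, 5 of the 27 were higher and 5 lower. The covariate used below was the mean log2 CPM of the list, not the summed level. This mean was 6.44 to 6.96 in KO TAC and 6.22 to 6.86 in WT TAC. In the sham groups it was 6.29 to 6.67 (KO) and 6.37 to 7.04 (WT). With the immediate early level as a covariate, the KO effect on Nfkbia was -0.48 averaged over surgeries (adjusted p = 1.25e-05), -0.59 after TAC (adjusted p = 2.53e-05) and -0.37 after sham surgery (adjusted p = 0.0446), where it had been -0.62.

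Tnfaip3 (chr10:19000910-19015410) encodes A20, a ubiquitin-editing enzyme that ends signalling from TNF and pattern receptors. It was measured at 38.4 ± 8.67 CPM in WT sham (SD, n = 3), 44.5 ± 3.79 in WT TAC (n = 5), 43.6 ± 3.55 in KO sham (n = 3) and 41.6 ± 4.91 in KO TAC (n = 4). All 4 groups overlapped, and no comparison called it: the log2 fold change for KO averaged over surgeries was 0.00 ± 0.09 (adjusted p = 0.976). Tnfaip3 and Nfkbia, both feedback inhibitors with the consensus close to the start, thus had different results in the KO mice, but the difference between the genes was not tested. Of 10 tested genes in the list of ubiquitin-editing and other feedback inhibitors, which holds Tnfaip3, 2 fell in KO TAC against WT TAC, near the share of 15% of all genes that were lower. They were Tax1bp1, an adaptor of A20 (-0.29 ± 0.07, adjusted p = 0.00321), and Zc3h12a, an RNase that degrades cytokine mRNA (-0.38 ± 0.14, adjusted p = 0.0394). The list's median log2 fold change was -0.07, beside -0.02 for all genes.

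Nfkb2 (chr19:46304737-46312090) encodes p100, the precursor of the p52 subunit, and is a target of NF-kappaB in turn. The 3 WT sham libraries had 83.4, 88.9 and 90.3 CPM, and the 5 WT TAC libraries 88.4, 85.8, 78.7, 80.1 and 82.3 CPM. KO sham libraries had 112, 105 and 90.1 CPM, and KO TAC libraries 104, 94.0, 93.1 and 118 CPM. After TAC every KO library lay above every WT library, while after sham surgery KO sham 350 lay just below the highest WT library. The KO effect was small and steady: 0.30 ± 0.08 after TAC (adjusted p = 0.00892), called in all 23 alternative settings, and 0.27 ± 0.07 averaged over surgeries (adjusted p = 0.00419), called in all 22. The sham groups alone gave 0.24 ± 0.11 (adjusted p = 0.170). The TAC effect on Nfkb2 was -0.07 ± 0.09 in WT and -0.01 ± 0.10 in KO, neither of them called.

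Relb (chr7:19606222-19629438) encodes RelB, the partner of p52 in the noncanonical branch of the pathway. Its levels were 39.3, 48.9 and 38.4 CPM in WT sham, and lay between 39.6 and 42.0 CPM in the 5 WT TAC libraries. KO TAC libraries had 49.0, 43.2, 44.8 and 56.5 CPM, all above the WT TAC libraries, and KO sham libraries had 40.9, 50.9 and 25.3 CPM. The comparison of KO TAC with WT TAC gave 0.24 ± 0.13 and was not called (adjusted p = 0.180). It passed the test with only the groups compared (adjusted p = 0.0185), without KO sham 350 (0.0368) and without both KO sham 348 and 350 (0.0274), 350 being the library with the lowest Relb level. In KO the TAC effect was 0.28 ± 0.16 (adjusted p = 0.273), and it turned to -0.07 without those 2 libraries and to 0.52 without KO sham 349, where it was called (adjusted p = 0.028). In KO TAC against WT TAC 1 of the 5 subunit genes, Nfkb2, was called, beside 29.8% of all genes. Rela gave 0.05, Nfkb1 -0.08 and Rel 0.17 on the log2 scale.

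Tnfaip2 (chr12:111442661-111455018), a gene first known as TNF-inducible in endothelial cells, changed most with surgery. WT sham libraries had 5.75, 9.17 and 4.51 CPM, and WT TAC libraries 17.4, 26.6, 23.2, 36.6 and 32 CPM. KO sham libraries had 13.5, 17.5 and 15.2 CPM, and KO TAC libraries 30.1, 50.7, 45.9 and 30.9 CPM. The sham and TAC groups did not overlap within either genotype, and KO sham lay between WT sham and most of WT TAC. TAC raised Tnfaip2 3.75-fold in WT (log2 fold change 1.91 ± 0.27, adjusted p = 0.000341), a call made in all 23 alternative settings. In KO the rise was 2.55-fold (1.35 ± 0.24, adjusted p = 0.00121). The averaged TAC effect was 1.63 ± 0.18 (adjusted p = 5.15e-06). In bulk RNA from a sorted population, more cells with the transcript and more transcript per cell cannot be told apart, and the same holds for every fall described here.

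Tnfaip2 was also higher in KO than in WT. The difference was 2.15-fold after sham surgery (log2 fold change 1.1 ± 0.29, adjusted p = 0.0219) and 1.46-fold after TAC (0.55 ± 0.20, adjusted p = 0.0377), and averaged 0.83 ± 0.18 (adjusted p = 0.00113, called in all 22 settings). The difference of the TAC effects was -0.55 ± 0.35 and was not called (adjusted p = 0.494), so a smaller rise in KO was not shown. The TAC effect in KO was lost with limma voom (adjusted p = 0.0895) and without KO sham 348 and 350 (0.0909). The KO effect after TAC was lost without WT TAC 134, 135 or 136 or KO TAC 352 or 353 (adjusted p = 0.0593 to 0.168), and that after sham surgery without WT sham 131 or 133 or KO sham 349 (0.0518 to 0.124), without both KO sham 348 and 350 (0.0659), with limma voom (0.245) and with only the groups compared (0.0788). Fibroblast markers moved with Tnfaip2 after TAC. In WT 7 of 12 rose, beside 1.6% of all genes. Their summed level was 122 to 187 CPM in WT sham and 336 to 410 CPM in WT TAC. It was 97.3 to 265 CPM in KO sham and 140 to 252 CPM in KO TAC. In KO 3 of 12 rose, Postn, Mfap5 and Pi16, and 1, Pdgfra, fell, beside 4.65% and 4.94% of all genes. Between KO TAC and WT TAC the fibroblast markers moved the other way. There 7 of 12 were lower in KO TAC, beside 15% of all genes, while Tnfaip2 was higher. Their part in the TAC effect was not tested.

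**Figure D3:**
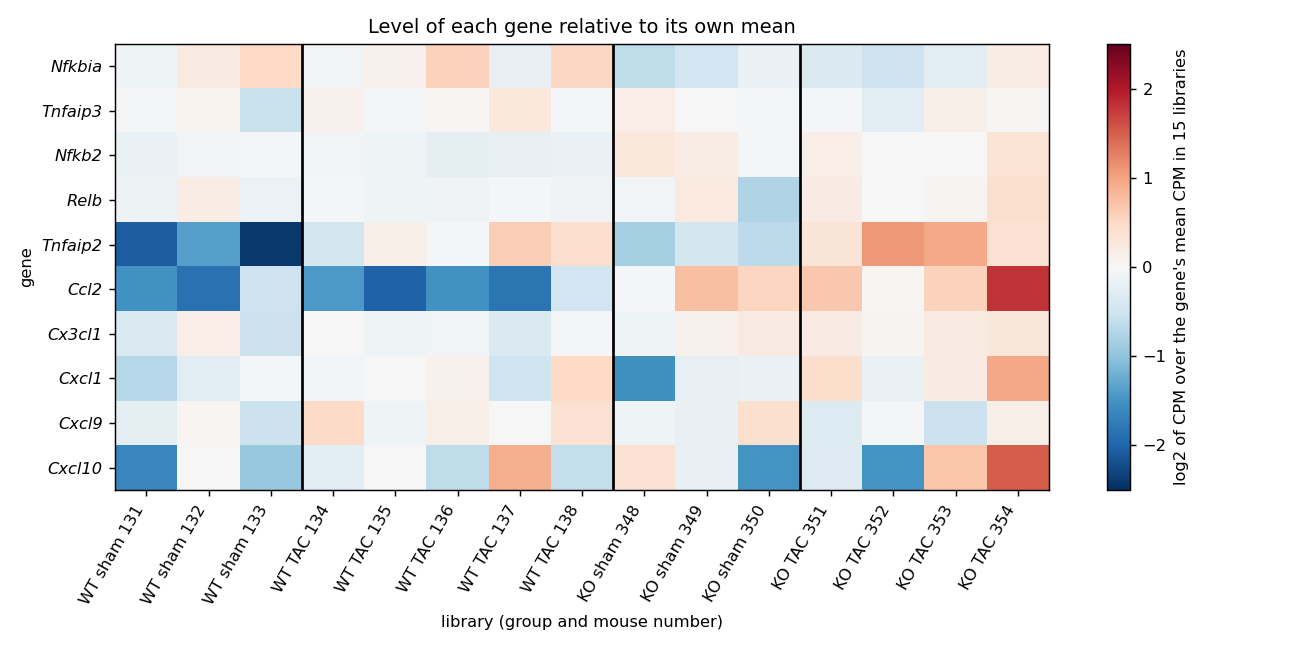
Level of each gene (rows) in each library (columns, by group and mouse number), as the log2 of its CPM over the gene's own mean in 15 libraries. Tnfaip2 and Ccl2 show the widest spread between groups, and KO TAC 354 has the highest level of its group for 8 of the 10 genes.

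Ccl2 (chr11:82035577-82037452) encodes MCP-1, the ligand of the monocyte receptor CCR2. It was scarce in WT, at 1.13, 0.887 and 2.26 CPM after sham surgery and 1.20, 0.802, 1.13, 0.909 and 2.34 CPM after TAC. KO sham libraries had 3.13, 5.48 and 4.73 CPM, and KO TAC libraries 5.18, 3.36, 4.81 and 11.3 CPM. All 7 KO libraries lay above all 8 WT libraries. The value of WT sham 133 rested on 3 counts, so that the group's highest level is also its least certain. Ccl2 was 4.91-fold higher in KO TAC than in WT TAC (log2 fold change 2.30 ± 0.41, adjusted p = 0.000188) and 3.86-fold higher in KO sham than in WT sham (1.95 ± 0.57, adjusted p = 0.0353). Averaged over surgeries the KO effect was 2.12 ± 0.35 (adjusted p = 8.49e-05), the largest of the 10 genes.

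The call on Ccl2 after TAC was made in all 23 alternative settings and the averaged call in all 22. The call after sham surgery was lost without WT sham 131, WT sham 132 or KO sham 349 (adjusted p = 0.121, 0.199 and 0.0588), with limma voom (0.0527) and when the sham groups were fitted alone (0.217). No TAC effect on Ccl2 was called (WT 0.10 ± 0.54, KO 0.45 ± 0.44, adjusted p = 0.966 and 0.563). The macrophage marker Cd68 was higher in KO TAC (4.29 to 7.13 CPM) than in WT TAC (0.818 to 4.15 CPM; log2 fold change 1.37 ± 0.39, adjusted p = 0.00986). Of the 6 leukocyte markers tested Cd68 was the 1 called, beside 29.8% of all genes. In the same comparison 4 of the 6 had a negative log2 fold change, and the median was -0.18. The summed leukocyte level was 10.1 to 17.8 CPM in KO TAC and 10.2 to 16.4 CPM in WT TAC. Smooth muscle genes also rose in KO TAC against WT TAC, among them Tagln (1.85 ± 0.31) and Myh11 (1.78 ± 0.31), while the pericyte gene Rgs5 fell (-0.41 ± 0.12). The summed level of the pericyte and smooth muscle list was 135 to 202 CPM in KO TAC and 139 to 200 CPM in WT TAC. The part of these cells in the Ccl2 result was not tested.

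Cx3cl1 (chr8:94772180-94782426) encodes fractalkine, an adhesive chemokine anchored in the endothelial membrane. WT sham libraries had 88.2, 127 and 78.3 CPM, and WT TAC libraries 115, 106, 108, 88.4 and 112 CPM. KO sham libraries had 105, 122 and 133 CPM, and KO TAC libraries 131, 119, 132 and 139 CPM. After TAC the 4 KO libraries lay above the 5 WT libraries by a small margin, and the sham groups overlapped. KO TAC exceeded WT TAC by a log2 fold change of 0.30 ± 0.11 (1.23-fold, adjusted p = 0.0409), and the averaged KO effect was 0.27 ± 0.09 (adjusted p = 0.0221). The first call was lost without WT TAC 135, 136 or 137 or KO TAC 351, 353 or 354 (adjusted p = 0.0544 to 0.107) and with the immediate early covariate (0.0738), and the second without WT sham 131 or 133 (0.0894 and 0.066) and with limma voom (0.0565). Its receptor gene Cx3cr1, a leukocyte gene, reached no more than 1.01 CPM in any library.

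Cxcl1 (chr5:90891245-90893115) encodes a neutrophil chemokine. Its values were 8.11, 11.0 and 12.8 CPM in the WT sham libraries, 12.6, 13.2, 14.3, 9.45 and 18.7 CPM in the WT TAC libraries, 4.58, 11.5 and 11.9 CPM in the KO sham libraries, and 18, 11.8, 15.3 and 26 CPM in the KO TAC libraries. The TAC groups reached the higher values in both genotypes, with overlap. The averaged TAC effect was 0.68 ± 0.21 (1.61-fold, adjusted p = 0.0422), the WT value being 0.42 ± 0.30 (adjusted p = 0.577) and the KO value 0.94 ± 0.30 (adjusted p = 0.0514, called without KO sham 349, KO sham 350 or KO TAC 352 at 0.0289 to 0.0372). The averaged call was made in 9 of 22 settings. Leaving out any of KO TAC 351, 353 or 354, WT TAC 134, 135, 136 or 138, KO sham 348, or a WT sham library ended it (adjusted p = 0.0528 to 0.149), as did leaving out both KO sham 348 and 350 (0.155) and limma voom (0.0812). Genotype gave no call on Cxcl1, with an averaged KO effect of 0.12 ± 0.21 (adjusted p = 0.708). The related Cxcl2, also a neutrophil chemokine, stayed at 0.0943 to 1.5 CPM in all libraries.

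Cxcl9 (chr5:92321331-92328079) and Cxcl10 (chr5:92346639-92348889) encode ligands of CXCR3, a chemokine receptor on T cells, and lie 18559 bases apart on the minus strand. For Cxcl9 the WT libraries had 41.7, 50.8 and 33.9 CPM after sham surgery and 68.9, 45.7, 54.3, 49.7 and 63.8 CPM after TAC. The KO libraries had 45.8, 43.2 and 65.0 CPM after sham surgery and 38.7, 47.7, 33.9 and 54.6 CPM after TAC. All groups overlapped, the WT mean being higher after TAC and the KO mean lower. The TAC effect was 0.36 ± 0.17 in WT and -0.22 ± 0.17 in KO, neither called (adjusted p = 0.328 and 0.453). Their difference, -0.58 ± 0.24, was the largest relative to its error among the 10 genes but was not called (adjusted p = 0.268, and 0.114 to 0.756 over 22 settings). KO TAC against WT TAC gave -0.37 ± 0.15 (adjusted p = 0.0651) and was called in 8 of 23 settings, among them without WT TAC 135 (0.0384), KO sham 350 (0.0389) or KO TAC 354 (0.0282).

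Cxcl10 was scarce, at 0.943 to 2.88 CPM in WT sham, 1.88 to 5.45 CPM in WT TAC, 1.03 to 3.80 CPM in KO sham and 1.03 to 8.27 CPM in KO TAC. It was called in none of the 7 comparisons. The SE of its log2 fold changes was 0.43 to 0.93, so that only large differences could have been detected. The highest values of the 2 TAC groups came from WT TAC 137 and KO TAC 354. The interferon response list, in contrast, had called genes in KO TAC against WT TAC, where 17 of 26 genes fell, beside 15% of all genes, and 9 did not pass the test, with a median log2 fold change of -0.45 beside -0.02 for all genes. Examples are Irf7, the interferon-inducible transcription factor, with 126 to 158 CPM in WT TAC and 57.7 to 77.5 CPM in KO TAC (-0.96 ± 0.12, adjusted p = 4.19e-06), and Cd274, the gene of the checkpoint ligand PD-L1 (-1 ± 0.11, adjusted p = 9.80e-07). The antiviral gene Rsad2 (-0.83 ± 0.11) and the immunoproteasome subunit gene Psmb9 (-0.99 ± 0.13) also fell. Cxcl9 lay on the same side as these genes without passing the test, and Cxcl10 on the other.

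**Figure D4:**
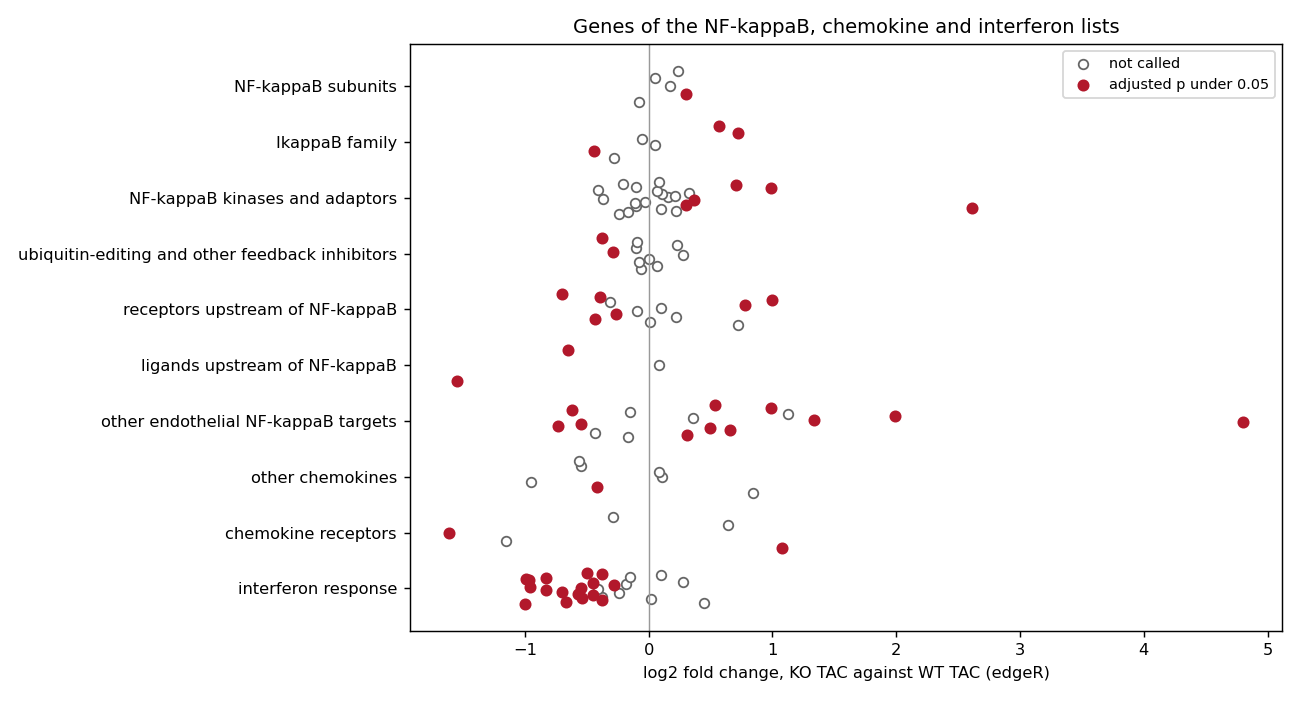
Log2 fold change in KO TAC against WT TAC of the tested genes of 10 lists (rows), filled where the adjusted p was under 0.05 by edgeR. The interferon response list has 17 of its 26 genes called lower, while the list of other endothelial NF-kappaB targets has 8 of 16 called higher and 3 lower. Both lists hold Irf1. Of all genes 14.8% were called higher and 15% lower.

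Other endothelial targets of NF-kappaB, outside the 10 genes, were spread to both sides of 0 by genotype. Their list shares Irf1 with the interferon list, and Traf1 and Birc3 with the list of kinases and adaptors. Of 16 tested genes 8 were higher and 3 lower in KO TAC than in WT TAC, beside 14.8% and 15% of all genes, with a median log2 fold change of 0.43 beside -0.02. Icam1, an adhesion molecule for leukocytes, was measured at 127 to 206 CPM in KO TAC and 86.7 to 105 CPM in WT TAC (0.66 ± 0.12, adjusted p = 0.000184). Plau, the gene of urokinase, had 33.5 to 42.6 CPM against 12.6 to 16.2 CPM (1.34 ± 0.14, adjusted p = 2.65e-07). Lif, a cytokine of the IL-6 family, lay at 4.14 to 5.32 CPM in KO TAC and at 0 to 0.301 CPM in WT TAC (adjusted p = 5.41e-05). In WT sham Lif was listed at 0, where 3 counts would amount to 0.222 to 2.26 CPM, and in KO sham it was 0 to 2.67 CPM. Ier3, an early response gene that protects from apoptosis, fell in KO TAC (-0.73 ± 0.14, adjusted p = 0.000306). After TAC in KO 1 of the 16 genes rose, beside 4.65% of all genes: Icosl (0.81 ± 0.22, adjusted p = 0.0237).

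In the list of kinases and adaptors 5 of 22 genes rose in KO TAC against WT TAC and 17 did not pass the test, with a median of 0.09. With 14.8% of all genes higher and 29.8% called in either direction, this count is near the background. They were Traf3 (0.71 ± 0.09, adjusted p = 3.16e-06), which restrains the noncanonical branch, Ikbke (2.61 ± 0.51), Map3k7, the gene of TAK1 (0.37 ± 0.08), Traf1 (0.99 ± 0.24) and Irak1 (0.30). Without KO sham 348 and 350 the count was 9, with 7 higher and 2 lower. Ikbke, which encodes a kinase related to TBK1, was scarce, at 1.28 to 4.81 CPM in KO TAC and 0.443 to 0.636 CPM in WT TAC. In the IkappaB family 2 of 6 genes rose and 1 fell, beside 14.8% and 15% of all genes. Nfkbie (0.72 ± 0.19, adjusted p = 0.00604) and Nfkbiz (0.57 ± 0.16, adjusted p = 0.00909) rose, while Nfkbia fell. Of the 6 log2 fold changes 3 were positive and 3 negative, with a median of 0 beside -0.02 for all genes. The call on Nfkbia was lost in 11 of 23 settings.

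Of 12 receptor genes upstream of NF-kappaB 2 rose and 4 fell in KO TAC against WT TAC, beside 14.8% and 15% of all genes, with a median of -0.04. Tlr4, the receptor for bacterial lipopolysaccharide, lay at 87.8 to 98.5 CPM in KO TAC and 48.5 to 57.4 CPM in WT TAC (0.78 ± 0.11, adjusted p = 1.23e-05). The TNF receptor genes Tnfrsf1b (-0.70 ± 0.12) and Tnfrsf1a (-0.39 ± 0.07) and the IL-1 receptor gene Il1r1 (-0.43 ± 0.08) fell. TAC in WT raised 2 of the 12, beside 1.6% of all genes. They were Ltbr, the receptor for lymphotoxin (0.36 ± 0.08, adjusted p = 0.0205), and Tnfrsf1a (0.30 ± 0.08, adjusted p = 0.0403). Of the ligands, Tnfsf12 (TWEAK) fell in KO TAC against WT TAC (-0.65 ± 0.14, adjusted p = 0.00105), as did the scarce Il33 (-1.55 ± 0.43, adjusted p = 0.00827, at 0.570 to 1.91 CPM in KO TAC). Tnf itself was measured at 5.83 to 22.6 CPM over all libraries and was not called after TAC in this contrast, and Tnfsf11 was at 0 in all 15 libraries.

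The 5 chemokines described here stood beside few others. Of 27 other chemokine genes 7 passed the filter on low counts. Cxcl12, a homeostatic chemokine that binds CXCR4, had the highest count, with a mean of 2730 CPM, and fell in every pairwise comparison: by 0.49 after TAC in WT, by 0.60 after TAC in KO, and by 0.42 in KO against WT after TAC and 0.31 after sham surgery (log2 scale). Ccl17, Ccl20, Ccl21a, Cxcl13, Cxcl15 and Xcl1 were at 0 in all 15 libraries, a level at which 3 counts would be 0.19 to 2.26 CPM. Among the receptors, the leukocyte genes Ccr1, Ccr3, Cxcr1 and Cxcr2 were at 0 in all libraries. Cxcr4 fell in KO TAC against WT TAC (-1.61 ± 0.15, adjusted p = 9.06e-08), from 119 to 228 CPM in WT TAC to 44.2 to 70.9 CPM, and its TAC effects differed between genotypes (-1.28 ± 0.24, adjusted p = 0.0153). The gene of the chemokine scavenger ACKR2, listed as Ccbp2, whose ligands include the product of Ccl2, was higher in KO than in WT (averaged 1.30 ± 0.21, adjusted p = 8.29e-05).

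The libraries of a group did not move as one. In KO TAC, mouse 354 had the highest level of its group for 8 of the 10 genes and the lowest for 0, and mouse 352 the lowest for 7. The same library had the highest summed level of its group in the interferon list, at 3253 CPM against 2128 to 2601 CPM, and in the immediate early list, at 9370 CPM against 7123 to 7737 CPM. Without KO TAC 354, the KO effect after TAC was still called for Ccl2, Nfkb2, Nfkbia (-0.58, adjusted p = 0.00889) and Tnfaip2 (0.66, adjusted p = 0.0207). The call on Cx3cl1 was lost (adjusted p = 0.0799), and Cxcl9 became called (-0.47, adjusted p = 0.0282).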

How the data were processed

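RNA of sorted cardiac endothelial cells from 15 mice was sequenced. The authors deposited 1 table of raw counts per gene. They were made by strand-specific counting (setting 2) in featureCounts 1.6.2, per the file headers, after alignment to mm10 by HISAT2 2.1.0, per the submitters' processing notes. Antisense neighbours (15 bases of Nfkbia, 4 of Nfkb2) were thus told apart. Each column matched 1 sample by mouse number, and 0 were left over.

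Counts were tested in R 4.3.3 with edgeR 4.0.16: filterByExpr (minimum count 10, total 15), TMM scaling, 1 glmQLFit model of all 15 libraries with a coefficient per group and 11 residual degrees of freedom, two-sided glmQLFTest, and Benjamini-Hochberg adjustment over 12471 genes in each of 7 comparisons, with a threshold of 0.05. CPM use TMM-scaled totals. SE are those of log2 fold changes, and SD those of levels. The scripts were tested on simulated data. The labels name 1 batch, and the p-values measure the spread between these mice. Replicates differed by more than counting noise. Intervals of 3 counts at 0 cover counting error only, as reads carry no molecular identifiers.

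The genes, lists, tests and alternatives were chosen with earlier results of these data known. Lists cover NF-kappaB subunits, the IkappaB family, kinases and adaptors, feedback inhibitors, receptors, ligands, other targets, chemokines and their receptors, interferon and immediate early genes, and cell type markers. Named were all 10 genes, Tmem173 and up to 4 called genes per list and comparison by smallest p. Rela, Rel, Nfkb1, Irak1 after TAC, Tnf, Tnfsf11, Cxcl2, Cx3cr1, Ptprc and the chemokines and receptors at 0 were named after their values were seen. Older symbols were matched through RefSeq synonyms. Alternatives were DESeq2 1.42.0, limma 3.58.1 voom with quality weights, RLE scaling, other count filters, an immediate early covariate, fits of only the groups compared, and leaving out libraries.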

Additional observations from a re-analysis of the deposited data

Results flagged for a closer look

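In 36 groups of 4 or 5 libraries, for the 10 genes and the summed lists, the gap of the highest or lowest library to its neighbour was compared with Dixon's 95% critical value. Chance marks about 1 in 20 groups, and 2 were marked. Ccl2 in WT TAC 138, at 2.34 CPM, stood above the 4 other WT TAC libraries (0.802 to 1.20 CPM), with a gap of 0.741 of the group's range. It still lay below every KO TAC library. The summed level of the cardiomyocyte markers in KO TAC 351 was 218.8 CPM, above the other KO TAC libraries, with a gap of 0.854 of the range.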

How the results depend on the processing

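Alternatives were compared for 28 fold changes, none of them of Tnfaip3 or Cxcl10, with 22 or 23 alternatives each. Of the values obtained, 555 kept direction and side of the threshold, 52 were no longer called, 26 became called and 1 reversed. The reversed value was that of Relb in KO TAC against KO sham, -0.07 without KO sham 348 and 350. The numbers of all genes called moved more. TAC in WT called 323 genes, 498 with DESeq2, 1146 with limma voom, 723 with only the groups compared, 695 without KO sham 348 and 350, and 109 to 543 leaving out 1 library. TAC in KO called 1196 genes, 295 with limma voom, 374 with only the groups compared, 191 without the 2 KO sham libraries and 695 to 2372 leaving out 1 library. KO sham against WT sham called 1148, and 463, 289, 394 and 505 to 2014 under these 4 alternatives. The difference of the TAC effects called 86 genes, 314 with DESeq2, 174 with no count filter, 135 with the immediate early covariate, 3 without the 2 KO sham libraries and 25 to 764 leaving out 1 library. The averaged TAC effect called 1333, 824 without the 2 libraries and 845 to 2012 leaving out 1.

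Of the 10 genes, TAC in KO called 1, but 2 with DESeq2, RLE scaling or no count filter, 0 with limma voom or without KO sham 348 and 350, and 1 to 3 leaving out 1 library. KO sham against WT sham called 2, but 0 with limma voom or only the groups compared, 1 without the 2 libraries, and 0 to 3 leaving out 1. The averaged TAC effect called 2, but 1 with limma voom or without the 2 libraries, and 1 to 2 leaving out 1. KO TAC against WT TAC called 5, and 2 to 7 leaving out 1 library. Among kinases and adaptors 9 in place of 5 genes were called in that comparison without the 2 libraries, an alternative chosen after seeing the data. The cause of these changes was not tested. No paired analysis was possible because mouse numbers are not shared between groups.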
